A study of Mus musculus with 12 samples.

Results

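The genes examined were 10 secreted growth and tissue-repair factors: the insulin-like growth factor Igf1, the endothelial growth factor Vegfa, the epidermal growth factor (EGF) family ligands Hbegf, Areg and Ereg, the platelet-derived growth factors Pdgfa and Pdgfb, and the cytokines Osm, Il10 and Csf1. They were taken by name, as the rows of the gene count table whose Ensembl identifier maps to these symbols, and all 10 were found among the 57010 genes of the table. After genes with low counts were removed, 15943 genes were tested, among them 7 of the 10. Areg, Ereg and Il10 did not pass and are given as counts.

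Large peritoneal macrophages, which reside in the body cavity around the gut, were sorted from female mice. WT mice and Tim4KO mice, which lack the phosphatidylserine receptor Tim4 encoded by Timd4, were either naive or had received ID8ZGO cells into the peritoneal cavity 24 h earlier at 8 weeks of age. The age of the naive mice and the way the knockout was made are not given in the labels. ID8 is a mouse ovarian tumour line, and ID8ZGO carries ZsGreen and ovalbumin. Only ZsGreen-positive macrophages were sorted from the injected mice, so challenge, uptake and the sort gate cannot be told apart. Of each group (WT naive and WT ID8, Tim4KO naive and Tim4KO ID8) there were 3 libraries. The labels do not say that the libraries of a group came from separate animals, and the p-values then measure only the spread between these libraries.

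Macrophages in tissues release factors that act on the cells around them. Igf1 signals through the receptor tyrosine kinase Igf1r, with binding proteins that hold it in the extracellular space. Vegfa drives the growth of blood vessels and is a classical target of the hypoxia-inducible factors. The EGF family ligands are made as membrane-anchored precursors and are released by metalloproteases such as Adam17. They then bind Egfr, and some of them also bind Erbb4. Pdgfa and Pdgfb act on mesenchymal cells, Osm signals through receptors that share the Il6st chain, Il10 restrains inflammatory macrophages, and Csf1 keeps macrophages alive through Csf1r.

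Upstream sequences are shown for Vegfa and Csf1, because Vegfa rose with challenge in both genotypes while Csf1 was not called in either, and both windows are free of annotated exons. They are the 250 bases before the RefSeq transcript start in GRCm38.p6, both on the minus strand, at chr17:46032378-46032627 for Vegfa and chr3:107760470-107760719 for Csf1, printed 5′ to 3′. Capitals mark the GC box GGGCGG.
Vegfa: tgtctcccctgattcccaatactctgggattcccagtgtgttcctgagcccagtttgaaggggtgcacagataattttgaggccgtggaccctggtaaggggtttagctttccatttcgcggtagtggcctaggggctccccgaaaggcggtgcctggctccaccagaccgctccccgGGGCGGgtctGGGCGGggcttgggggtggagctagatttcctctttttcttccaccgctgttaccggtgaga
Csf1: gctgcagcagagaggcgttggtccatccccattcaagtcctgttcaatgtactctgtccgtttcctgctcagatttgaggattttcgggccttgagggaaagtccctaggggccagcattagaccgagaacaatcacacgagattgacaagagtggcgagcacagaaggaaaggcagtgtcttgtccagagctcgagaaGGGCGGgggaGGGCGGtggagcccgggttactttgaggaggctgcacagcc
Each window held 2 GC boxes, at 72 and 62 bases before the start for Vegfa and at 51 and 41 for Csf1. Of 32851 such windows, 32.7% held this motif on either strand. Neither printed window held the hypoxia-response core ACGTG (16.6% of all windows), the AP-1 motif TGANTCA (6.75%), the cAMP-response motif TGACGTCA (1.55%) or the STAT motif TTCNNNGAA (7.02%), all searched on both strands. A window of a second Vegfa start, not shown, held ACGTG 211 bases before that start, and 218 of its 250 bases lie in annotated exons. Sequence farther upstream was not searched, so a motif absent here may lie outside these windows. Windows were found for 5 of the 10 genes (Igf1, Vegfa, Areg, Pdgfa and Csf1). A motif match is a description of the letters and not evidence of binding.

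Library totals ran from 7358559 counts in Tim4KO naive 2 to 23170244 in WT ID8 3. Levels are counts scaled to library size (CPM), with TMM (trimmed mean of M values) factors of 0.896 to 1.09. Timd4 stood at 1180, 1280 and 1490 CPM in WT naive and at 1110, 1450 and 882 CPM in WT ID8, against 7.71, 7.32 and 7.21 CPM in Tim4KO naive and 1.92, 1.85 and 1.38 CPM in Tim4KO ID8. The macrophage markers Adgre1 (2570 to 6300 CPM), Gata6 (120 to 194 CPM) and Icam2 (617 to 1480 CPM) were present in every library. WT ID8 3 stood apart: its counts differed from those of WT ID8 1 and 2 by 46.5 and 78.6 in chi-square per degree of freedom, while the other pairs within a group lay between 5.04 and 21.6. Background reads, taken as the mean level of 1713 olfactory and vomeronasal receptor genes, were lowest in WT ID8 3, at 0.00344 CPM per gene, and highest in WT naive 1, at 0.475 CPM. They were lower in each WT ID8 library than in any WT naive library. For the 3 genes that were called, results are therefore given also with this background as a covariate. As the WT groups did not overlap in this background, such a fit cannot fully part background from challenge in WT.

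Among the 7 tested factors, challenge in WT cells raised Vegfa and Osm, lowered Igf1 and left Hbegf, Pdgfa, Pdgfb and Csf1 uncalled. A gene was called at an edgeR Benjamini-Hochberg adjusted p under 0.05 over all tested genes, and 31.8% of all tested genes were called in this comparison (19.5% higher, 12.3% lower). In Tim4KO cells challenge raised Vegfa and lowered Igf1, with the other 5 uncalled, against 16.6% of all genes called (11.5% higher, 5.06% lower). The median log2 change of the 7 was 0.19 in WT and -0.15 in Tim4KO, beside -0.04 and -0.05 over all tested genes. Neither genotype comparison called any of the 7, and 0.0439% of all genes were called in naive cells and 0.0565% in ID8 cells. At an unadjusted p under 0.05, 0 of the 7 passed in naive cells (6.27% of all genes) and 1, Osm, passed in ID8 cells (12.1% of all genes). The interaction, in which the WT challenge response was subtracted from that of Tim4KO, called 0 of 15943 genes (0%), while 1186 (7.44%) had an unadjusted p under 0.05, Osm among them. The challenge and genotype comparisons share libraries and are not independent of each other.

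**Figure D1:**
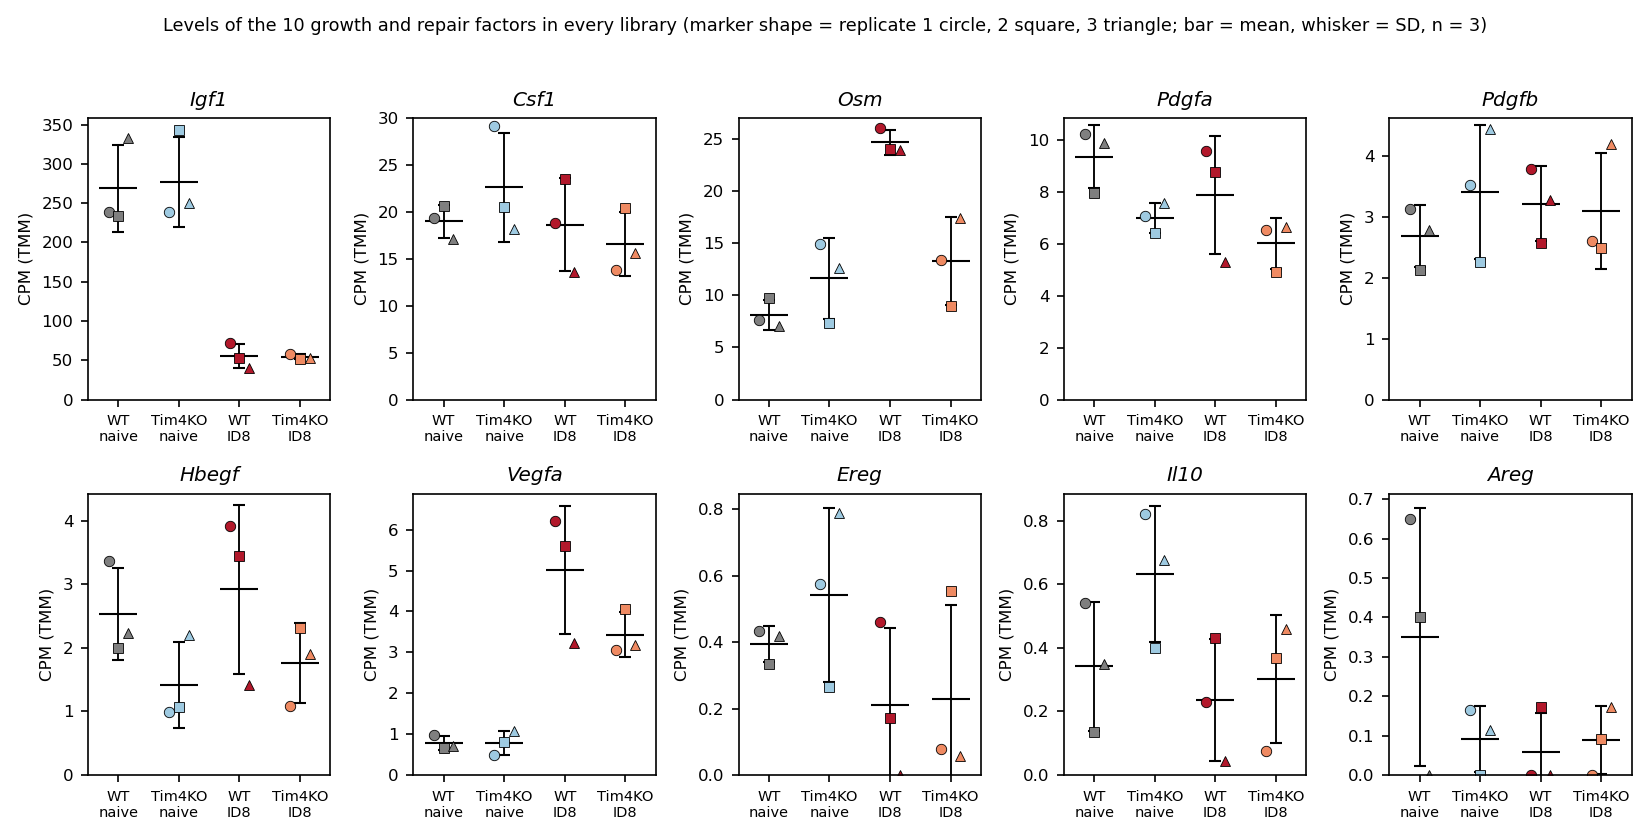
Levels of the 10 factors in every library, in CPM on linear axes from 0, with the mean as a bar and the SD as a whisker (n = 3, lower whiskers end at 0 where the SD exceeds the mean). Igf1 lay between 40.8 and 71.9 CPM in the 6 ID8 libraries and at 234 CPM or above in the 6 naive libraries, and Osm was highest in the 3 WT ID8 libraries.

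Igf1 was the most abundant factor of the 10 in naive macrophages and fell with challenge in both genotypes. It stood at 239, 234 and 333 CPM in WT naive and at 239, 343 and 250 CPM in Tim4KO naive. After challenge it stood at 71.9, 53.1 and 40.8 CPM in WT and at 57.9, 52 and 53 CPM in Tim4KO. Every ID8 library was below every naive library, as for 21% of all tested genes in WT and 18.1% in Tim4KO. The log2 change was -2.29 in WT (SE 0.21, 4.88-fold lower, edgeR adjusted p = 5.22e-06) and -2.35 in Tim4KO (SE 0.21, 5.1-fold lower, edgeR adjusted p = 8.67e-06). With the background covariate the changes were -2.07 and -2.27, both called. The responses differed by -0.07 on the log2 scale (95% interval -0.67 to 0.54, edgeR adjusted p = 0.96). In bulk libraries, fewer cells that make a transcript and less of it per cell cannot be told apart. The 3 genes whose log2 CPM followed Igf1 most closely over the 12 libraries were Cxcl12, Csf3r and Matk, each with a Pearson r of 0.98. All 4 genes were higher in naive than in ID8 groups, and such a correlation carries the difference between conditions and the shared library depth.

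Receptors of the insulin-like growth factors and the binding protein Igfbp4 were examined beside Igf1. Igf2r, which takes up and degrades Igf2 and carries lysosomal enzymes, rose from 19.9 ± 3.3 to 93.2 ± 13.6 CPM in WT (log2 change 2.22, SE 0.21, edgeR adjusted p = 6.68e-06). In Tim4KO it rose from 22.1 ± 7.24 to 79.1 ± 2.84 CPM (log2 change 1.84, edgeR adjusted p = 6.64e-05), where ± is the SD over 3 libraries here and below. Igf1r, the signalling receptor, fell from 26.2 ± 3.59 to 16.9 ± 3.93 CPM in WT (log2 change -0.65, edgeR adjusted p = 0.0182). In Tim4KO its change was -0.55 and was not called (edgeR adjusted p = 0.0578). The Igf1r call was lost without WT naive 2, WT naive 3 or WT ID8 3, and the background covariate brought its edgeR adjusted p to 0.237. Insr, the insulin receptor, stood between 53.3 and 60.7 CPM on average in the 4 groups and was not called. Igfbp4, a secreted protein that binds insulin-like growth factors, stood at 82.6, 76.9 and 66.7 CPM in WT naive and at 70.6, 62.6 and 78.7 CPM in Tim4KO naive. After challenge its levels were 14, 10.7 and 11.5 CPM in WT and 22.5, 19.2 and 22.8 CPM in Tim4KO. Igfbp4 fell by 2.65 on the log2 scale in WT (edgeR adjusted p = 1.3e-07) and by 1.71 in Tim4KO (edgeR adjusted p = 4.51e-06). Neither the difference between these responses (0.94, edgeR adjusted p = 0.481) nor that between the challenged genotypes (0.84, edgeR adjusted p = 0.0568) was called.

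Vegfa had few reads in naive cells and rose with challenge in both genotypes. WT naive libraries held 9, 10 and 10 counts and Tim4KO naive libraries 6, 6 and 19. WT ID8 libraries held 54, 65 and 71 counts and Tim4KO ID8 libraries 40, 44 and 55. As levels, naive libraries ran from 0.492 to 1.07 CPM, WT ID8 libraries stood at 6.21, 5.59 and 3.24 CPM, and Tim4KO ID8 libraries at 3.07, 4.06 and 3.17 CPM. The ID8 libraries lay above all naive libraries, as for 23.3% of all tested genes in WT and 23.7% in Tim4KO, and the challenged genotypes overlapped. The log2 change was 2.68 in WT (SE 0.38, 6.41-fold, edgeR adjusted p = 0.00016) and 2.08 in Tim4KO (SE 0.38, 4.23-fold, edgeR adjusted p = 0.002). With the background covariate these were 3.18 and 2.26, both called. The genotype difference in challenged cells was -0.53 (95% interval -1.24 to 0.18, edgeR adjusted p = 0.525), and the difference between responses was -0.60 (95% interval -1.74 to 0.55, edgeR adjusted p = 0.771).

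Other genes that respond to low oxygen were examined beside Vegfa as a list of 14 symbols. Of these, 13 were found among the counted genes, and all 13 were tested. In WT 6 rose, 2 fell and 5 were not called (median log2 change 0.71), against 19.5% of all tested genes higher and 12.3% lower. In Tim4KO 6 rose, 1 fell and 6 were not called (median 0.51), against 11.5% higher and 5.06% lower. The 4 with the smallest p concern glucose metabolism and protein folding. Pgk1, a glycolytic enzyme, rose from 70.2 ± 9.82 to 325 ± 48.8 CPM in WT and from 61.8 ± 8.78 to 245 ± 22.2 CPM in Tim4KO (log2 changes 2.21 and 1.98, edgeR adjusted p = 6.44e-07 and 2.96e-06). The glucose transporter gene Slc2a1 rose from 6.08 ± 1.31 to 27.4 ± 4.33 CPM in WT and from 6.59 ± 1.1 to 18.8 ± 2.9 CPM in Tim4KO. Ldha, which makes lactate, rose by 1.36 and 1.17 on the log2 scale, and Ero1l, an oxidase of the endoplasmic reticulum, by 1.53 and 0.78. All 4 were called in both genotypes with each library left out in turn and in every other setting. Pfkfb3, a glycolytic regulator outside the naming rule that was picked after its values were seen, fell by 1.04 in WT and by 1.03 in Tim4KO (edgeR adjusted p = 0.00764 and 0.0127). Its Tim4KO call was lost without Tim4KO naive 2, Tim4KO naive 3 or Tim4KO ID8 2. With the background covariate, none of the list was called lower in WT (edgeR adjusted p = 0.0971 for Pfkfb3).

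Among the receptors of Vegfa, Nrp2, a co-receptor, rose from 4.48 ± 1.67 to 13.2 ± 5.2 CPM in WT (log2 change 1.56, edgeR adjusted p = 0.00275) and from 3.77 ± 0.882 to 11.7 ± 1.24 CPM in Tim4KO (1.61, edgeR adjusted p = 0.00455). Nrp1, the more abundant co-receptor, stood at 135 ± 11.1 and 100 ± 7.73 CPM in WT and at 138 ± 39 and 98.8 ± 5 CPM in Tim4KO, naive and challenged, and was not called (edgeR adjusted p = 0.0612 in both). The signalling receptors Kdr, Flt1 and Flt4 averaged 0.3 to 3.08 CPM in the 4 groups and were not called. Kdr and Flt1 are defining genes of endothelial cells. Pgf, a relative of Vegfa, was called in WT (0.29 ± 0.0305 to 1.58 ± 1.08 CPM, log2 change 2.45, edgeR adjusted p = 0.0337), a call lost without any 1 of the WT naive libraries or without WT ID8 3. Its edgeR adjusted p was 0.15 with the background covariate.

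**Figure D2:**
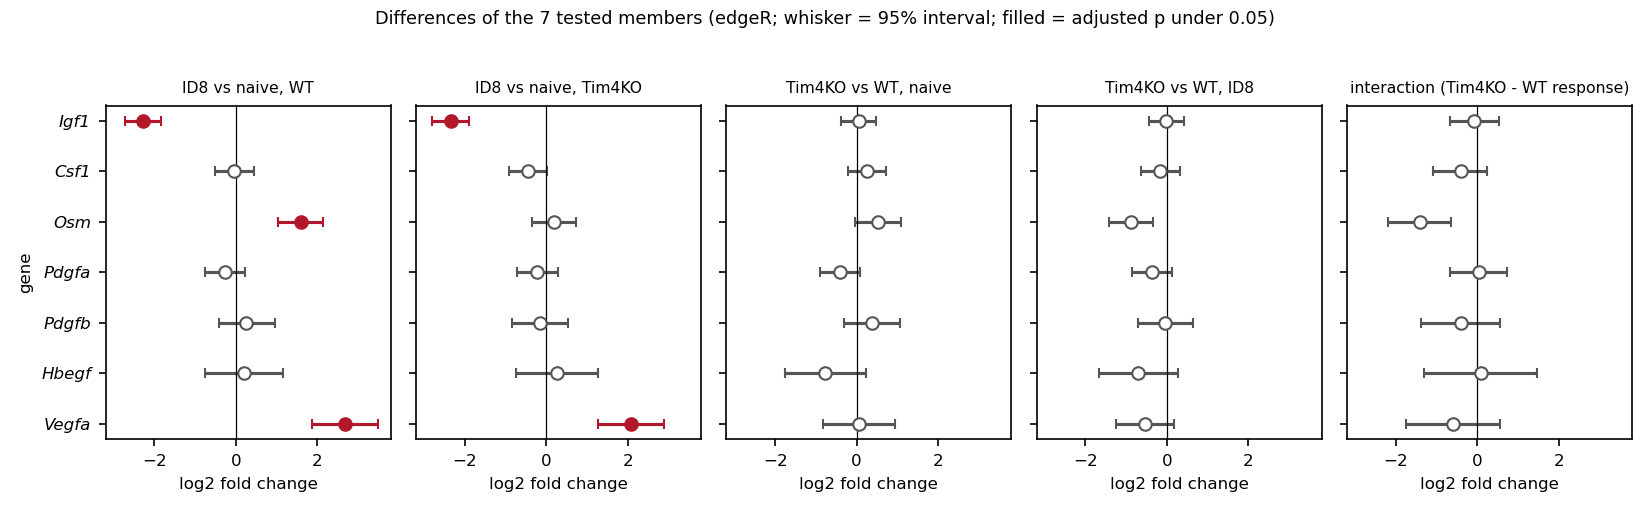
Log2 fold changes of the 7 tested factors in the 5 comparisons, with the 95% interval as a whisker and filled points for an edgeR adjusted p under 0.05. Filled points appear for Igf1, Vegfa and Osm under challenge in WT and for Igf1 and Vegfa in Tim4KO, and in no other panel.

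Osm, a cytokine of the interleukin-6 (IL-6) family, was the one factor with a challenge call in WT and none in Tim4KO. It stood at 7.58, 9.75 and 7.06 CPM in WT naive and at 14.9, 7.32 and 12.6 CPM in Tim4KO naive. After challenge it stood at 26, 24 and 23.9 CPM in WT and at 13.4, 8.95 and 17.4 CPM in Tim4KO. The WT ID8 libraries lay close together and above all others, while Tim4KO ID8 overlapped Tim4KO naive. In WT the log2 change was 1.59 (SE 0.26, 3.02-fold, edgeR adjusted p = 0.000449), and with the background covariate it was 1.62. In Tim4KO it was 0.18 (95% interval -0.36 to 0.73, edgeR adjusted p = 0.671), with a sign that changed without Tim4KO naive 2 (-0.03) or without Tim4KO ID8 3 (-0.04).

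That difference between the responses of Osm was tested and was not called. The interaction was -1.41 (SE 0.36, 95% interval -2.18 to -0.64, unadjusted p = 0.00143), with an edgeR adjusted p of 0.668. With single libraries left out its edgeR adjusted p ran from 0.0457 (without WT ID8 3) to 0.969. It was 0.0027 with no filter on low counts, 0.152 with DESeq2 and 0.176 with the background covariate, and the estimate itself stayed between -1.67 and -1.21 in every setting. In challenged cells Osm was lower in Tim4KO by -0.89 (SE 0.25, 95% interval -1.42 to -0.35), with no overlap of libraries. Libraries did not overlap, with Tim4KO lower, for 8.56% of all tested genes in that comparison. The unadjusted p was 0.00311 and the edgeR adjusted p 0.216. The adjusted p was 0.0405 with DESeq2, 0.00413 in edgeR with no filter on low counts, and 0.0503 without WT ID8 3, the lowest of 12 such fits, in which it reached 0.555. In naive cells Tim4KO was 0.52 higher (95% interval -0.03 to 1.08, edgeR adjusted p = 0.8), and the libraries overlapped. By the Pearson r of log2 CPM over the 12 libraries, the genes most like Osm were Tdp1 (0.92), Lias (0.90) and Phf5a (0.90), as a description only.

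Other genes of the IL-6 family and its receptors were set beside Osm. Il6 itself stood at 1.84, 4.34 and 4.4 CPM in WT naive, 3.44, 1.46 and 2.03 CPM in Tim4KO naive, 27.9, 34.1 and 17.6 CPM in WT ID8 and 8.38, 8.58 and 11.5 CPM in Tim4KO ID8. It rose in both genotypes, by 2.87 (SE 0.35, edgeR adjusted p = 6.32e-05) and by 2.01 (SE 0.36, edgeR adjusted p = 0.002). The challenged libraries of the genotypes did not overlap, with Tim4KO lower, as for 8.56% of all tested genes. Neither that difference (-1.47, edgeR adjusted p = 0.12) nor the interaction (-0.86, edgeR adjusted p = 0.698) was called. Il6st, the shared signalling chain, averaged 94.4 to 129 CPM in the 4 groups and was not called. Lifr, which pairs with it, fell from 77.6 ± 11.1 to 48.4 ± 9.2 CPM in WT (log2 change -0.69, edgeR adjusted p = 0.0289) and from 114 ± 42.4 to 58.8 ± 4.44 CPM in Tim4KO (-0.95, edgeR adjusted p = 0.00925). The WT call of Lifr was lost without WT naive 2, WT naive 3, WT ID8 2 or WT ID8 3, and the Tim4KO call without Tim4KO naive 2 or Tim4KO ID8 2. Osmr, another receptor chain for Osm, averaged 0.54 to 1.7 CPM and was not called.

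Feedback genes that are induced downstream of these receptors were counted over a list of 24, of which 21 were tested. In WT 1 rose and 1 fell (median log2 change -0.10, against 31.8% of all tested genes called). In Tim4KO 0 rose and 1 fell (median -0.22, against 16.6%). These numbers moved with the setting: over the alternatives 1 to 4 rose and 0 to 5 fell in WT, and 0 to 1 rose and 1 to 4 fell in Tim4KO. The gene that rose was Pim1, a kinase gene activated by STAT factors. It stood at 46.8, 47.1 and 42.6 CPM in WT naive, 40.8, 45.9 and 46.6 CPM in Tim4KO naive, 87.6, 76.8 and 64.7 CPM in WT ID8 and 43.7, 44 and 53.8 CPM in Tim4KO ID8. The WT ID8 libraries lay above all others, by 0.74 on the log2 scale over WT naive (edgeR adjusted p = 0.000968), against 0.09 in Tim4KO (edgeR adjusted p = 0.702). Of all tested genes, 23.3% had every WT ID8 library above WT naive, and 8.56% had every Tim4KO ID8 library below WT ID8. The interaction of Pim1 was -0.66 and was not called (edgeR adjusted p = 0.668). Spry2, which restrains growth factor receptor signalling, fell from 4.38 ± 1.37 to 1.93 ± 0.408 CPM in WT (edgeR adjusted p = 0.0165) and from 4.86 ± 1.65 to 1.53 ± 0.283 CPM in Tim4KO (edgeR adjusted p = 0.00479). Its WT call was lost without WT naive 1 or WT ID8 3, and the background covariate brought its edgeR adjusted p to 0.212.

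Of the EGF family ligands, only Hbegf passed the filter on low counts, and it was not called in any comparison. Hbegf had 31, 30 and 32 counts in WT naive, 12, 8 and 39 counts in Tim4KO naive, 34, 40 and 31 counts in WT ID8 and 14, 25 and 33 counts in Tim4KO ID8. Levels ran from 0.984 to 3.91 CPM and overlapped between all groups compared. The challenge changes were 0.19 in WT (95% interval -0.77 to 1.15) and 0.26 in Tim4KO (95% interval -0.74 to 1.27). Tim4KO was lower by -0.78 in naive cells (edgeR adjusted p = 0.826) and by -0.70 in ID8 cells (edgeR adjusted p = 0.547), with SE of 0.47 and 0.46. At this depth a difference of 1 on the log2 scale lay inside all 4 of these intervals in at least one direction.

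Areg and Ereg were at the limit of detection. Areg, which epithelium and innate lymphoid cells use in repair, had 6, 6 and 0 counts in WT naive, 2, 0 and 2 counts in Tim4KO naive, 0, 2 and 0 counts in WT ID8 and 0, 1 and 3 counts in Tim4KO ID8. Ereg, another ligand of the family, had 4, 5 and 6 counts in WT naive, 7, 2 and 14 counts in Tim4KO naive, 4, 2 and 0 counts in WT ID8 and 1, 6 and 1 counts in Tim4KO ID8. A count of 0 allows a level of up to 3 counts, which is 0.137 to 0.399 CPM depending on the library. Per kb of exon, Areg was at or below the background of receptor genes in 5 of 12 libraries and Ereg in 3. Beside these counts, the summed markers of group 2 innate lymphoid cells were 33.2 to 34.9 CPM in WT naive, 18.9 to 30.6 CPM in Tim4KO naive, 13.3 to 17.3 CPM in WT ID8 and 13.2 to 17.4 CPM in Tim4KO ID8, with Il5 at 0 in both naive groups. Rora (19.2 to 21.4 CPM) and Il1rl1 (8.8 to 9.53 CPM) held most of the sum in WT naive, where Il13 was at most 0.279 CPM. The summed epithelial, mesothelial and tumour markers were 5.74 to 25.1 CPM in WT naive, 7.22 to 9.01 CPM in Tim4KO naive, 1.6 to 4.6 CPM in WT ID8 and 2 to 5.54 CPM in Tim4KO ID8, with Krt8 at up to 6.28 CPM in WT naive. The part of such cells in the Areg and Ereg counts was not tested.

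**Figure D3:**
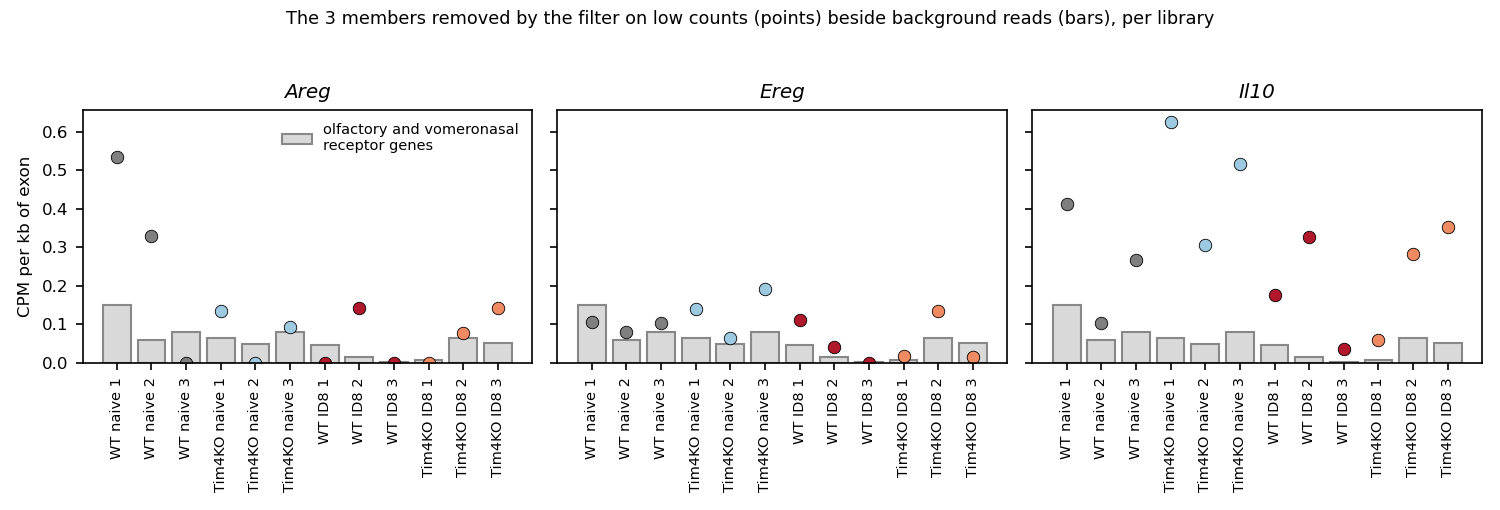
Levels of Areg, Ereg and Il10 in each library (points) in CPM per kb of exon, beside the mean of the olfactory and vomeronasal receptor genes on the same scale (bars). Bars run from 0.00109 in WT ID8 3 to 0.15 in WT naive 1, 5 Areg points and 3 Ereg points lie at or below their bar, and all 12 Il10 points lie above theirs.

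The receptors of the EGF family were low in these cells. Erbb3, which has little kinase activity of its own, was the most abundant in CPM at 13.1 to 13.7 on average in the 4 groups and was not called. Egfr (2.46 to 3.96 CPM) and Erbb2 (2.53 to 3.85 CPM) were not called either. Erbb4 was called lower in WT, from 1.07 ± 0.417 to 0.0767 ± 0.133 CPM (edgeR adjusted p = 0.0138), but not with the background covariate (edgeR adjusted p = 0.281) or without WT ID8 2. Erbb4 stood at 1.41, 0.601 and 1.19 CPM in WT naive, beside a background of 0.475, 0.185 and 0.253 CPM per receptor gene in the same libraries. These values are not scaled to exon length, so they do not place Erbb4 above background.

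Proteins that shed, process or bind these ligands formed a list of 24 genes, of which 18 were tested. In WT 6 rose and 4 fell (median log2 change 0.18, against 31.8% of all tested genes called), and in Tim4KO 3 rose and 2 fell (median 0.09, against 16.6%). Adam8, a membrane metalloprotease, rose from 63.8 ± 3.28 to 296 ± 36.1 CPM in WT and from 63.3 ± 7.32 to 265 ± 24.4 CPM in Tim4KO (log2 changes 2.21 and 2.06, edgeR adjusted p = 2.11e-07 and 1.05e-06). Adam9, a relative, rose from 112 ± 9.94 to 217 ± 44.7 CPM in WT (log2 change 0.95, edgeR adjusted p = 0.000195) and from 139 ± 6.25 to 196 ± 4.32 CPM in Tim4KO (0.50, edgeR adjusted p = 0.0224). The Tim4KO call of Adam9 was lost in 6 of 12 fits, one for each Tim4KO library left out. Adam15 rose in Tim4KO, from 280 ± 37.7 to 416 ± 34.9 CPM (log2 change 0.57, edgeR adjusted p = 0.00938), and was not called in WT (0.18, edgeR adjusted p = 0.307). The interaction for Adam15 was not called (edgeR adjusted p = 0.668), and its Tim4KO call was lost without Tim4KO naive 2. Adam17, the main sheddase of Hbegf and Areg, is outside the naming rule and was picked after its values were seen: it rose in WT from 103 ± 12.1 to 163 ± 40.4 CPM (log2 change 0.66, edgeR adjusted p = 0.0053) and had a change of 0.32 in Tim4KO that was not called (edgeR adjusted p = 0.184). In WT, 3 of this list instead of 6 were called higher with upper-quartile scaling or with only the groups compared, and 1 instead of 4 was called lower with the background covariate.

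Pdgfa and Pdgfb were not called in any comparison. Pdgfa stood at 10.2, 7.95 and 9.85 CPM in WT naive, 7.05, 6.39 and 7.55 CPM in Tim4KO naive, 9.55, 8.76 and 5.29 CPM in WT ID8 and 6.53, 4.89 and 6.63 CPM in Tim4KO ID8. In naive cells the Tim4KO libraries lay below the WT libraries without overlap, as they did for 6.84% of all tested genes. The difference was -0.41 (SE 0.23, 95% interval -0.90 to 0.09, edgeR adjusted p = 0.811). In ID8 cells it was -0.37 (edgeR adjusted p = 0.531), and WT ID8 3 lay within the Tim4KO range. Exons of 6330403L08Rik on the opposite strand overlap 813 of the 3119 exonic bases of Pdgfa, and 6330403L08Rik had 16 to 68 counts per library. Reads in the shared bases cannot be assigned to either gene if they were counted without strand. The sources used here do not state how strand was handled. Pdgfb levels ran from 2.14 to 4.45 CPM and overlapped between all groups, with log2 changes of 0.26 in WT (95% interval -0.42 to 0.95) and -0.15 in Tim4KO (95% interval -0.83 to 0.53) under challenge. The receptors Pdgfra and Pdgfrb averaged 0.337 to 1.01 CPM and were not called. Pdgfc was called lower in WT (1.22 ± 0.708 to 0.27 ± 0.185 CPM, edgeR adjusted p = 0.0323), but not with the background covariate (edgeR adjusted p = 0.449) or without WT naive 1, WT naive 3, WT ID8 2 or WT ID8 3.

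Csf1, the growth factor on which macrophages depend, was not called in any comparison. It stood at 19.3, 20.6 and 17.1 CPM in WT naive, 29.2, 20.5 and 18.2 CPM in Tim4KO naive, 18.8, 23.5 and 13.6 CPM in WT ID8 and 13.8, 20.4 and 15.6 CPM in Tim4KO ID8. All groups overlapped. The challenge change was -0.04 in WT (95% interval -0.51 to 0.44, edgeR adjusted p = 0.91) and -0.45 in Tim4KO (95% interval -0.92 to 0.02, edgeR adjusted p = 0.189). These 2 responses differed by -0.41 (edgeR adjusted p = 0.74). Csf1r, its receptor and a defining gene of macrophages, averaged 1070 ± 195 and 913 ± 71.6 CPM in WT naive and WT ID8 and 1270 ± 77.6 and 1040 ± 31.1 CPM in Tim4KO naive and Tim4KO ID8, and was not called.

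Il10 was detected at a few reads per library. It had 5, 2 and 5 counts in WT naive, 10, 3 and 12 counts in Tim4KO naive, 2, 5 and 1 counts in WT ID8 and 1, 4 and 8 counts in Tim4KO ID8, at 0.0456 to 0.82 CPM. All groups overlapped, and in a fit with no filter on low counts the edgeR adjusted p of Areg, Ereg and Il10 ran from 0.277 to 1 over the 5 comparisons. The receptor chain Il10ra, much more abundant than the ligand in CPM, fell in WT from 94.9 ± 21.8 to 62.2 ± 10.3 CPM (log2 change -0.61, edgeR adjusted p = 0.0166). In Tim4KO its change was -0.30 (edgeR adjusted p = 0.268). Il10rb fell in WT from 6.81 ± 0.1 to 4.38 ± 0.797 CPM (log2 change -0.65, edgeR adjusted p = 0.0235) and had a change of -0.34 in Tim4KO (edgeR adjusted p = 0.265). The Il10ra call was lost without WT naive 3, WT ID8 1 or WT ID8 2, and the Il10rb call without any 1 of the WT naive libraries or without WT ID8 2 or WT ID8 3. With the background covariate Il10rb was not called (edgeR adjusted p = 0.213). Over the 20 receptor genes as a list, 2 rose and 5 fell in WT (median log2 change -0.59), against 19.5% and 12.3% of all tested genes. In Tim4KO 2 of the list rose and 1 fell (median -0.32), against 11.5% and 5.06%. The number that fell in WT was 8 with upper-quartile scaling and 1 with the background covariate, and in Tim4KO it was 4 with upper-quartile scaling or DESeq2.

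Levels were compared between genes per kb of exon. In WT naive cells Igf1 led at 27.1 ± 5.63 CPM per kb, followed by Csf1 (3.6), Osm (3.58) and Pdgfa (2.99), whose libraries overlapped from 1 neighbour to the next. Pdgfb (0.647), Hbegf (0.524), Areg (0.288), Il10 (0.261) and Vegfa (0.182) came next with overlapping neighbours, and Ereg was lowest at 0.0958. In Tim4KO naive cells Igf1 again led at 28 ± 5.73 CPM per kb, ahead of Osm (5.11) and Csf1 (4.29), which overlapped, and of Pdgfa (2.24). After challenge the order changed at the top. In WT ID8 cells Osm led at 10.8 ± 0.526 CPM per kb, above Igf1 at 5.58 ± 1.58 with no overlap, and Igf1, Csf1 (3.53) and Pdgfa (2.52) overlapped from neighbour to neighbour. In Tim4KO ID8 cells Osm (5.83 ± 1.86) and Igf1 (5.48 ± 0.321) overlapped, and Igf1 lay above Csf1 (3.14) without overlap. Vegfa stood at 1.17 CPM per kb in WT ID8 and 0.802 in Tim4KO ID8, below Pdgfa without overlap and overlapping Pdgfb (0.774 and 0.746) in both.

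Among 25 other secreted repair factors, 20 were tested. In WT 3 rose and 8 fell (median log2 change -0.51), against 19.5% of all tested genes higher and 12.3% lower. In Tim4KO 2 rose and 4 fell (median -0.23), against 11.5% higher and 5.06% lower. The number that fell in WT was 5 with no filter on low counts and 3 with the background covariate. Metrnl, a cytokine of tissue repair, rose from 191 ± 3.53 to 365 ± 8.69 CPM in WT and from 216 ± 16.5 to 351 ± 33.6 CPM in Tim4KO (edgeR adjusted p = 4.61e-05 and 0.000861). Spp1, the matrix protein osteopontin, stood at 1.73, 2.07 and 0.978 CPM in WT naive, 0.41, 0.932 and 2.53 CPM in Tim4KO naive, 77.5, 70.3 and 32.2 CPM in WT ID8 and 7.69, 19.8 and 9.28 CPM in Tim4KO ID8. It rose by 5.23 on the log2 scale in WT (edgeR adjusted p = 0.000322) and by 3.09 in Tim4KO (edgeR adjusted p = 0.00932, lost without Tim4KO naive 2). The challenged genotypes did not overlap for Spp1, with Tim4KO lower, as for 8.56% of all tested genes. That difference (-2.30, edgeR adjusted p = 0.176) was not called. Hgf, the hepatocyte growth factor gene, fell from 19.9 ± 5.3 to 4.56 ± 2.34 CPM in WT and from 19 ± 6.37 to 4.8 ± 0.436 CPM in Tim4KO (edgeR adjusted p = 0.000438 and 0.0013). Gas6, which bridges phosphatidylserine on dying cells to macrophage receptors, fell from 7.07 ± 1.87 to 1.88 ± 0.421 CPM in WT (edgeR adjusted p = 0.000576) and from 6.94 ± 2.67 to 3.25 ± 0.74 CPM in Tim4KO (edgeR adjusted p = 0.0231). The Tim4KO call of Gas6 was lost without Tim4KO naive 3, Tim4KO ID8 2 or Tim4KO ID8 3. Of 28 further ligands of the same families as the 10 factors, 12 were tested. Of these, 2 were higher and 1 lower in WT and 1 was higher in Tim4KO, beside the same shares of all tested genes. No gene of any of these lists was called in a genotype comparison or in the interaction.

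**Figure D4:**
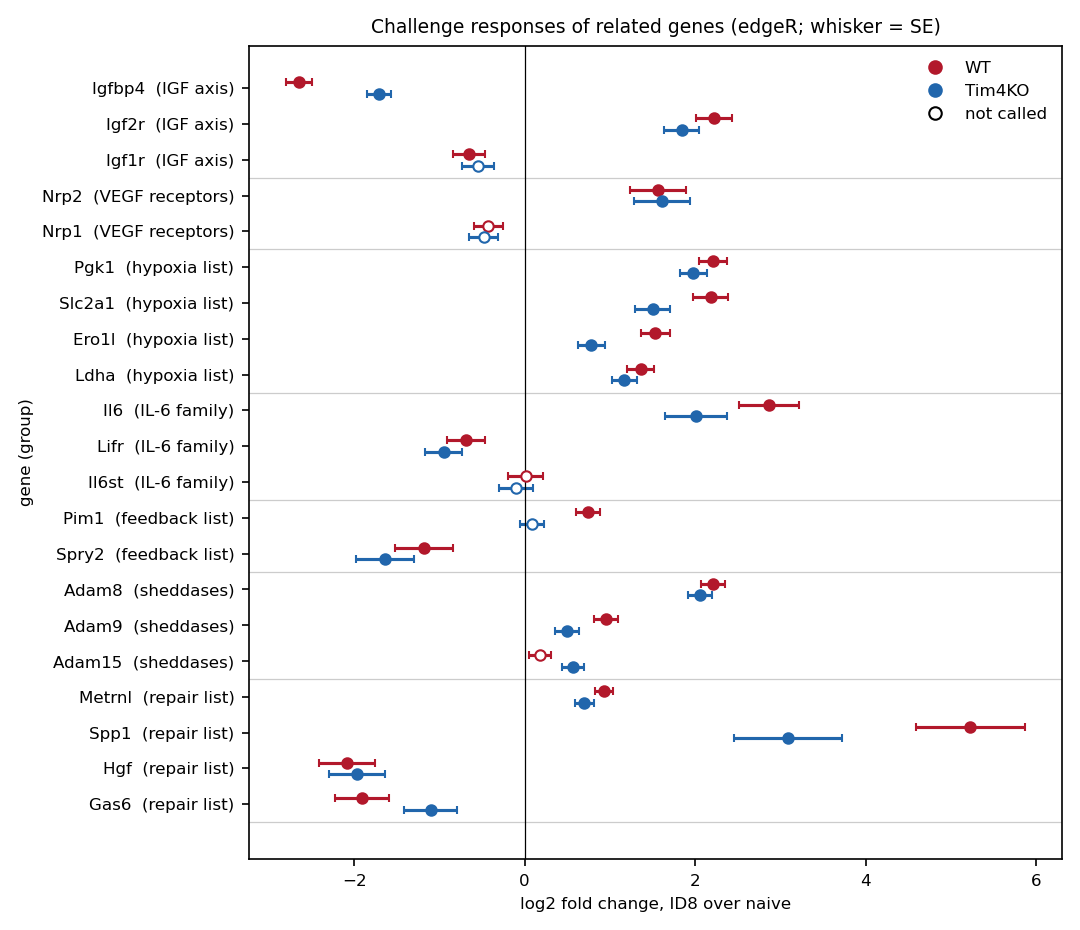
Log2 fold changes under challenge of receptors, binding proteins, sheddases and other genes related to the factors, in WT and Tim4KO, with the SE as a whisker and open points for genes that were not called. Igf2r, Nrp2, Il6, Adam8, Pgk1 and Slc2a1 lie to the right of 0 in both genotypes and Igfbp4, Hgf, Gas6, Lifr and Spry2 to the left.

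Markers of other cells were summed per library beside these results. Neutrophil markers were 6.5 to 7.47 CPM in WT naive, 7.59 to 9.51 CPM in Tim4KO naive, 11.6 to 28.3 CPM in WT ID8 and 21 to 30.9 CPM in Tim4KO ID8. This sum was thus higher after challenge in both genotypes, as Vegfa was. Osm was called higher in WT but not in Tim4KO (log2 change 0.18). S100a8 held the largest part of it, at 4.4 to 6.54 CPM in WT naive and 9.13 to 24.8 CPM in WT ID8. S100a8 and Retnlg were higher after challenge without overlap in both genotypes, and S100a9 in WT only. Ly6g, at 0.231 CPM or less, Mpo and Camp overlapped, and Elane was lower in WT ID8 (0 to 0.137 CPM) than in WT naive (0.325 to 0.768 CPM). The part of neutrophils in the Vegfa and Osm results was not tested. Markers of mast cells and basophils were lower after challenge: they summed to 15 to 35.6 CPM in WT naive and 13.4 to 31.9 CPM in Tim4KO naive, and to 2.19 to 4.81 CPM in WT ID8 and 5.3 to 9.15 CPM in Tim4KO ID8. The epithelial, mesothelial and tumour markers given above summed to less in each ID8 group than in the naive group of the same genotype, while Vegfa was higher in the ID8 groups, and their part in the Vegfa levels was not tested. The summed markers of small peritoneal macrophages and dendritic cells were 113 to 168 CPM in WT naive, 125 to 134 CPM in Tim4KO naive, 49.9 to 114 CPM in WT ID8 and 97.5 to 122 CPM in Tim4KO ID8. The list of large peritoneal macrophage markers summed to 52100 to 60800 CPM in naive libraries and to 25300 to 29300 CPM in ID8 libraries, so that it was lower where Igf1 was lower, which was not tested further. Lyz2 held most of that sum, at 44100 to 47400 CPM in WT naive libraries and 10700 to 15000 CPM in WT ID8 libraries. Of the 10 markers, Lyz2 and Prg4 were lower in every ID8 library than in any naive library of the same genotype, and Adgre1, Icam2, Cd5l and Itgam were higher. The other 4 (Gata6, Timd4, Selp and Csf1r) overlapped in WT. In Tim4KO they did not overlap: Gata6 was higher after challenge (129 to 148 CPM naive, 165 to 168 CPM ID8). Selp (583 to 614 CPM naive, 545 to 554 CPM ID8), Csf1r (1190 to 1340 and 1020 to 1070 CPM) and Timd4 were lower. Of all tested genes, 23.7% were higher and 18.1% lower without overlap in that comparison.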

How the data were processed

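RNA of 12 libraries of sorted large peritoneal macrophages was made into cDNA libraries with Takara's SMART-Seq mRNA LP chemistry, a PCR-based kit, per the labels. The authors deposited raw counts per Ensembl gene in 1 table. That they are raw was read from the values, and 0 columns were left unmatched. The submitters' processing notes name FastQC, STAR 2.5, mm10 and GRCm39, with no roles. The counting program and its handling of strand are not given in the sources used here, so no gene coordinates are printed. Gene names and exonic lengths came from GENCODE vM21 (52029 of 57010 identifiers named), and upstream windows with their coordinates from RefSeq.

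Genes were kept by filterByExpr (minimum count 10) and tested with edgeR 4.0.16 in R 4.3.3: TMM scaling, 1 robust quasi-likelihood fit, with 1 mean for each group, over all 12 libraries (8 residual degrees of freedom), two-sided F tests for 5 comparisons and Benjamini-Hochberg adjustment over 15943 genes. The SE was computed from the log2 change and the root of its F. The script was tested on simulated data. Alternatives were DESeq2 size factors, upper-quartile scaling, no filter, DESeq2 1.42.0, limma 3.58.1 voom, only the 2 groups, a replicate block, each library left out, and, added after the data were seen, a background covariate. That covariate is the log2 mean CPM of 1713 of 1736 receptor genes with a mean of at most 1 CPM. A count of 3 was taken as the floor, which covers counting error only and not PCR duplication.

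All 10 factors are reported. Of each further list, up to 4 called genes with the smallest p over the challenge comparisons were named, plus every receptor. The 3 genes most like a called factor were taken from those with at least 50 counts on average. Members and lists were chosen with earlier results of these data known.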

Additional observations from a re-analysis of the deposited data

How the results depend on the processing

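The challenge calls of Igf1 and Vegfa in both genotypes and of Osm in WT held in each of the 12 fits that left out 1 library and in the 8 other settings. Leaving out 1 library gave -2.45 to -2.07 for Igf1 in WT and -2.43 to -2.16 in Tim4KO, 2.57 to 2.95 and 1.84 to 2.45 for Vegfa, and 1.52 to 1.79 for Osm in WT. Of 35 results for the 7 tested factors (each in 5 comparisons), 20 kept their direction and side of the threshold in every setting, and 55 of 693 alternative values had the opposite sign, 0 of them for a called result. The numbers of genes called over the whole table moved more. For Tim4KO against WT in naive cells (7 genes) they were 59 with no filter, 52 with DESeq2, 4 with voom, 2 with only the groups compared and 3 with the replicate block. For Tim4KO against WT in ID8 cells (9 genes) they were 264 with no filter, 265 with DESeq2, 14 with the replicate block and 219 with the background covariate. For challenge in WT the fit to only the groups compared gave 3102 instead of 5067. The interaction called 73 genes with no filter, 11 with DESeq2 and 2 with the background covariate, instead of 0. Leaving out 1 library gave 1 to 29 genes for genotype in naive cells, 1 to 997 in ID8 cells, 3362 to 7230 for challenge in WT, 1222 to 3595 in Tim4KO and 0 to 368 for the interaction. The cause was not tested. Upper-quartile scaling moved the median log2 change of all genes from -0.04 to -0.28 in WT and from -0.05 to -0.17 in Tim4KO, and the share of higher calls from 61.3% to 33.9% and from 69.5% to 48.7%.

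Values of opposite sign, all of results that were not called, were as follows. With upper-quartile scaling Igf1 was at -0.01 for genotype in naive cells, at 0.05 in ID8 cells and at 0.05 for the interaction, Hbegf at -0.06 for challenge in WT and Pdgfb at 0.04 for genotype in ID8 cells. With voom Igf1 was at 0.03 for genotype in ID8 cells and Hbegf at -0.07 for challenge in WT, and with only the groups compared Igf1 was at 0.01 for genotype in ID8 cells. With no filter the interaction of Pdgfa was -0.01 and the WT challenge change of Csf1 was 0.07. With the background covariate the interactions of Hbegf and Pdgfa were -0.60 and -0.16, and the WT challenge changes of Pdgfa and Csf1 were 0.07 and 0.31. Leaving out 1 library crossed 0 for Igf1 (-0.13 to 0.24 for genotype in naive cells, -0.19 to 0.17 in ID8 cells, -0.26 to 0.11 for the interaction), Vegfa (-0.29 to 0.32 for genotype in naive cells), Hbegf (-0.01 to 0.58 for challenge in WT, -0.32 to 0.57 for the interaction) and Pdgfa (-0.35 to 0.00 and -0.20 to 0.16). It also did for Pdgfb (-0.34 to 0.09 for genotype in ID8 cells, -0.42 to 0.10 for challenge in Tim4KO), Osm (-0.04 to 0.43 for challenge in Tim4KO) and Csf1 (-0.37 to 0.04 for genotype in ID8 cells, -0.21 to 0.19 for challenge in WT). The replicate numbers were not used as pairs: same-numbered libraries correlated in their deviations from the group means with r of -0.09 to 0.33 (median 0.07, 18 pairs), and 5 of 12 correlated best with their own number. With the replicate block the challenge comparisons called 4619 and 2562 genes and the interaction 0, and no call of the 7 factors changed. Depth limits Areg, Ereg and Il10, whose counts reached 14 at most.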
